A study of Mus musculus with 18 samples.

Results

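The results below concern 9 genes of the glucose-responsive ChREBP axis in mouse liver, chosen by gene symbol out of 52230 genes to which the sequenced transcripts could be joined. They are the transcription factor pair Mlxipl and Mlx, the glycolytic enzyme gene Pklr, the alpha-arrestin genes Txnip and Arrdc4, the regulator genes Klf10 and Rgs16, and the transporter genes Slc16a1 and Slc25a47. All 9 genes passed the filter on low counts and were among the 10938 genes tested.

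ChREBP, the product of Mlxipl, is a transcription factor that pairs with Mlx and binds carbohydrate response elements near its target genes when metabolites of glucose accumulate in the cell. In liver it raises the expression of glycolytic and lipogenic enzymes after a carbohydrate meal. A shorter form, ChREBP-β, is transcribed from a start upstream of the main one and is itself induced by ChREBP. The supply of glucose 6-phosphate in hepatocytes depends on glucokinase, which the glucokinase regulatory protein GKRP, the product of Gckr, binds and holds in the nucleus at low glucose.

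The livers came from 18 mice of a C57BL/6N line that carries a proline (P) or a leucine (L) at residue 446 of GKRP in the whole body, with 1 RNA-sequencing library per mouse. PP is wild-type GKRP-446P and LL the knock-in GKRP-446L, and there were 4 mice of each genotype among the males and 5 of each among the females. All mice were on standard chow, freely available. The sample labels give ages of 9 to 14 weeks in male PP, 13 to 14 weeks in male LL, 9 to 14 weeks in female PP and 11 to 14 weeks in female LL mice, whereas the design text gives 14 weeks for all. The substitution is present in every cell type, so the liver is not its only site, and the hours since the last meal are not given in the labels. No label says from which litters or on which days the mice were taken, and p-values measure the spread between these mice.

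Libraries held 3794671 to 6613905 estimated counts. Fragment length, read from the difference between annotated and effective transcript length, ran from 369 to 631 bases in female PP, 247 to 377 bases in female LL, 396 to 630 bases in male PP and 203 to 582 bases in male LL libraries. All 5 hepatocyte markers were tested and their summed level was at least 19746 TPM (transcripts, corrected for length and scaled to the same total in each library) in every library. None of the markers of bile duct cells, lymphocytes or adipocytes passed the filter, and Adipoq and Lep were at 0 in all libraries. Of 4 pancreatic acinar cell markers 1 was tested, and their summed level ran from 15.6 to 82.1 TPM over the libraries. The amino acid exchange cannot be read from gene counts, and Gckr itself had mean normalized counts of 518 for PP and 478 for LL males, and of 611 for PP and 592 for LL females. Its genotype difference was -0.12 ± 0.15 (SE) on the log2 scale in males and -0.05 ± 0.13 in females, and neither passed the test.

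The study's own primers for ChREBP-β show which annotated transcript of Mlxipl can report the upstream start. Both are printed 5′ to 3′, as the study designed them:
forward: tctgcagatcgcgtggag
reverse: cttgtcccggcatagcaac
The forward primer matched chr5:135118892-135118909 of GRCm39 on the plus strand, inside the first exon of Mlxipl-210, and of all transcripts in the files it matched only that 1. The reverse primer matched the complement of chr5:135142526-135142544, which lies in an exon shared by 8 of the 10 Mlxipl transcripts, so only the first exon tells the forms apart. Mlxipl-210 starts 17011 bases upstream of the main coding transcript Mlxipl-201. It is annotated with a length of 412 bases and without a coding sequence, and 168 of its 382 words of 31 bases occur in no other Mlxipl transcript.

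The 4 windows printed next, around transcription starts, are shown because they hold the sequence that ChREBP and Mlx are known to bind or a core of it, for the ChREBP-β start, for Pklr and for the genes that differed between the sexes. Each runs from 250 bases before to 50 bases after a RefSeq start, taken from RefSeq's GRCm38.p6 table, and each was located in GRCm39 by its single exact match. Capitals mark CACGTG, which reads the same on both strands, or, in Pklr, a match to the carbohydrate response element consensus.
Mlxipl, upstream start, plus strand, chr5:135118494-135118793: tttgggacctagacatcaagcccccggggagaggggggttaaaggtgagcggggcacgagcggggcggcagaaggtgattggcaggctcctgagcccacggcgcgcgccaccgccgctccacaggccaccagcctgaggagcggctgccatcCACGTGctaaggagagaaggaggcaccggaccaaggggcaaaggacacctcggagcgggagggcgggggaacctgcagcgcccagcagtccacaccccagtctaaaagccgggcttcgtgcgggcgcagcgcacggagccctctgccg
Pklr, liver start, plus strand, chr3:89043680-89043979: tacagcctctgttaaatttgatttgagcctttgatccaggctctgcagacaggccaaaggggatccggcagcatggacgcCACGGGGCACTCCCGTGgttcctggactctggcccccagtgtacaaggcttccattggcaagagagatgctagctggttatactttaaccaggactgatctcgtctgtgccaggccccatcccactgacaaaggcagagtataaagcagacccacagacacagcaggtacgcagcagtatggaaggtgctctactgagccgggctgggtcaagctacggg
Arrdc4, minus strand, chr7:68398937-68399236: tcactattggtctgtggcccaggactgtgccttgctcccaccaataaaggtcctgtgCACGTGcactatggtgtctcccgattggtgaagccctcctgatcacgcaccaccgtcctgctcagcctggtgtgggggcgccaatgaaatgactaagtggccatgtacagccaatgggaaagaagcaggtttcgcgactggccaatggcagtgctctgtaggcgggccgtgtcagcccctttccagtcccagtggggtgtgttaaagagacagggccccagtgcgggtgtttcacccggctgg
Slc16a1, plus strand, chr3:104545730-104546029: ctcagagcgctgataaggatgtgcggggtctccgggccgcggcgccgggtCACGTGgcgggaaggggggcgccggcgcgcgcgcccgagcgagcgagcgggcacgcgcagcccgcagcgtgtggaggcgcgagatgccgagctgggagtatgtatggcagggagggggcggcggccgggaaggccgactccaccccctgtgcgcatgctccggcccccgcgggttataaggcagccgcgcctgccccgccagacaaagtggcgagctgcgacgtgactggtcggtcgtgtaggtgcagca
RefSeq windows were found for 8 of the 9 genes, 10 windows in all, and Klf10 was the gene without one. CACGTG was present in 4 of these windows, in Mlxipl 98 bases, in Arrdc4 193 bases, in Slc16a1 200 bases and in Mlx 40 bases before the RefSeq start. The same letters occur in 7.15% of all 32851 windows. The response element consensus matched 1 of the 10 windows, that of Pklr, where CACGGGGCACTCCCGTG began 170 bases before the start and did not overlap a CACGTG; it matched 0.119% of all windows. The windows of Txnip, Rgs16 and Slc25a47, the window at the main Mlxipl start and the more upstream Pklr window held neither string, which says only that these letters are not in those windows.

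Levels among the 9 genes were compared per transcript length, in TPM within each library. Slc25a47, a mitochondrial carrier of the liver, was the most abundant at a mean of 243 TPM over the 18 libraries and was above every other member in 18 of 18 libraries. Txnip followed at 64.1 TPM, Pklr at 43.6, Mlxipl at 33.8 and Mlx at 18.6 TPM. Txnip exceeded Pklr in 16 of 18 libraries, while Pklr exceeded Mlxipl in 13 and Mlxipl exceeded Mlx in 14, so the neighbours in the middle of this order overlapped. Klf10, Slc16a1 and Rgs16 lay together at 6.47, 6.16 and 6.14 TPM and could not be ordered, since Klf10 exceeded Slc16a1 in 10 of 18 libraries and Slc16a1 exceeded Rgs16 in 9. Arrdc4 was the least abundant at 1.51 TPM, at the 25.5 percentile of all tested genes, and its estimated counts were 13 to 55 per library, so its fold changes carry the largest share of counting error. All further gene values are normalized counts, which compare 1 gene between mice.

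**Figure D1:**
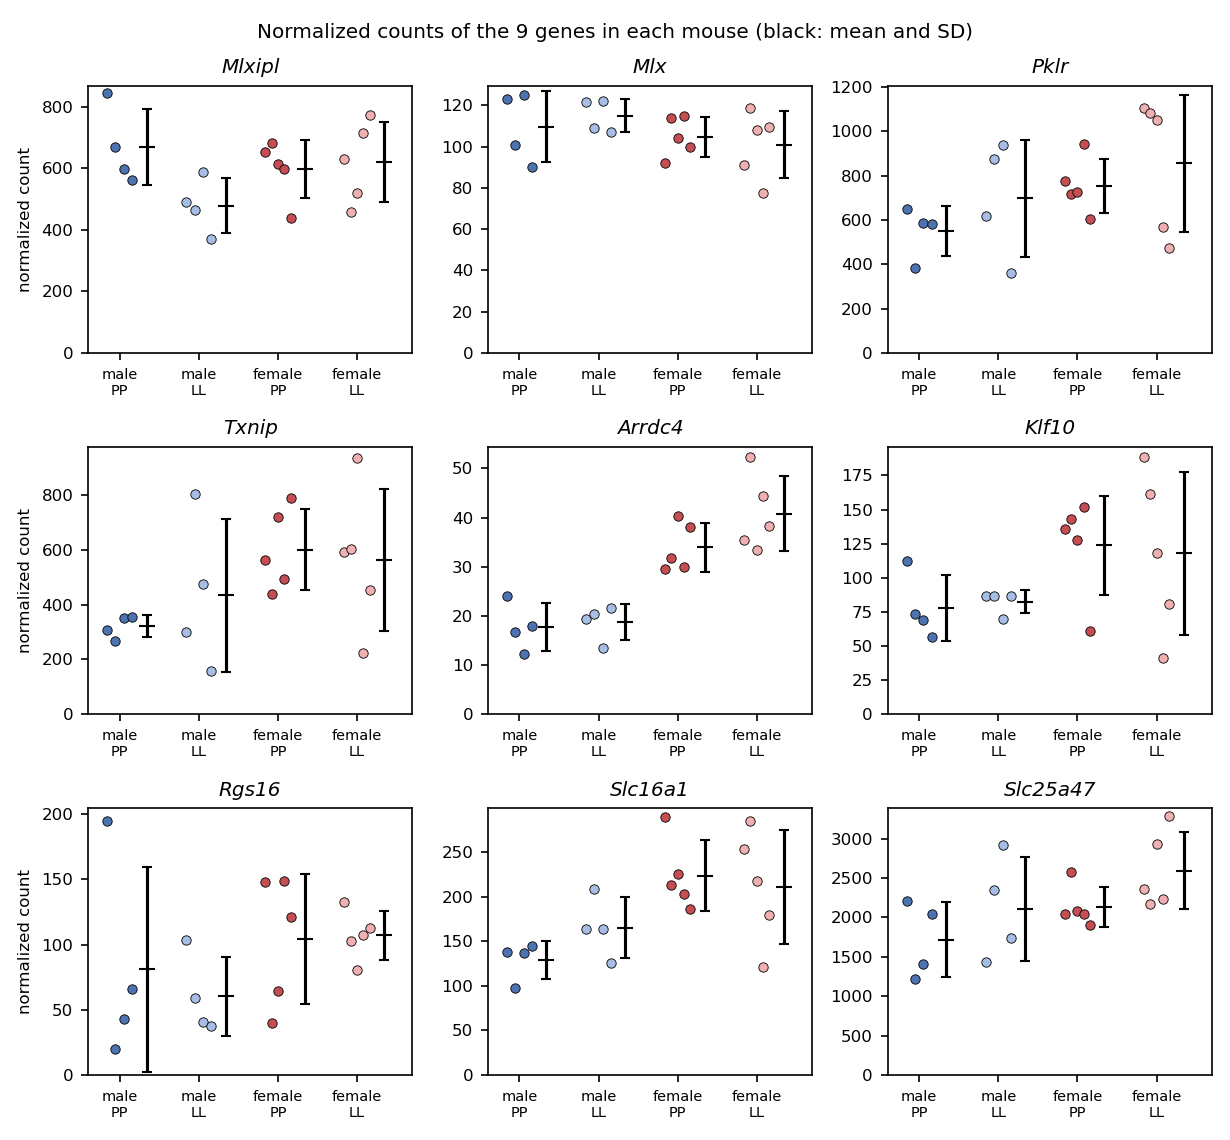
Normalized counts of the 9 genes (y axis, from 0) in each of the 18 mice, by group on the x axis, with the mean and SD of each group in black. The PP and LL points of each sex overlap for every gene, and the female points of Arrdc4 lie above all male points.

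The first question was whether the axis differed by LL genotype. None of the 9 genes was called in male LL against male PP mice, where called means a DESeq2 adjusted P under 0.05 together with a fold of 1.3 or more, or of 0.7 or less, and 0.283% of all tested genes were called. None was called in female LL against female PP mice (background 0.658%), in the average of both sexes (0.978%) or in the test of whether the genotype effect differed between the sexes (0.119%, adjusted P alone). At an unadjusted P under 0.05 there was 1 gene in males (Mlxipl), 0 in females, 1 in the average (Slc25a47) and 1 in the interaction (Mlxipl). Of all 10938 tested genes 854, 1427, 1513 and 620 were under this limit, in the same order. Of the 9 genes edgeR called 0 in each of the 4. DESeq2 gave no adjusted P to 4 of the 9 genes in males and 5 of 9 in the interaction because of their low mean counts, and without that filter none was called either. The median log2 fold change over the 9 genes was 0.10 in males and 0.037 in females, beside medians of 7.5e-05 and 0.010 over all genes tested. PP and LL libraries separated without overlap for 0 of the 9 genes in males and for 0 in females, against 4.07% and 2.66% of all tested genes.

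Mlxipl (chr5:135118744-135168615, plus strand; positions are of GRCm39 here and for the other genes) encodes ChREBP itself. Male PP mice had normalized counts of 843, 670.4, 599 and 563, and male LL mice had 491, 463, 587 and 371. Of the 4 male LL mice, 3 lay below every male PP mouse and 1 lay within the male PP range. The fitted difference was -0.48 ± 0.19 on the log2 scale, a fold of 0.716 with a 95% interval of 0.553 to 0.928, at an unadjusted P of 0.0117 and an adjusted P of 0.275. Female PP mice had 652, 681, 614, 598 and 438, and female LL mice had 630.0, 459, 520.4, 713 and 771. The female groups overlapped, with a fold of 1.04 and an interval of 0.824 to 1.31 (adjusted P 0.925). The genotype effect was 0.53 ± 0.26 higher in females than in males on the log2 scale, at an unadjusted P of 0.0366 and an adjusted P of 0.445. Over all alternatives the male difference stayed between -0.80 and -0.35 and was never called. Markers of Kupffer cells also had lower fitted values in male LL mice (median log2 difference -0.58), with 3 of 4 at an unadjusted P under 0.05 and 0 of 4 called. Their summed level was 32.2 to 128 TPM in male PP and 39.4 to 73.3 TPM in male LL libraries. Averaged over the sexes 1 of 4 was called lower in LL mice (median -0.51), beside 0.978% of all tested genes called. In males the median was 0.66 for stellate, 0.32 for endothelial, 0.20 for hepatocyte and -0.49 for red cell markers, with 0 called in each list. At an unadjusted P under 0.05 there were 854 of all 10938 tested genes in males. The part of other cells in the Mlxipl values was not tested. In bulk liver, fewer cells of a type and less RNA per cell cannot be told apart.

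Mlx (chr11:100978080-100983043, plus strand) encodes the partner that ChREBP needs to bind DNA. Male PP mice had 123, 101, 125 and 90.0 counts and male LL mice 122, 109, 122 and 107. Among females the PP mice had 91.8, 114, 104, 115 and 99.9 and the LL mice 91.0, 119, 108, 77.7 and 109. Mlx was the most even of the 9 genes, with a coefficient of variation of 12.4% over all 18 libraries. The genotype fold was 1.06 in males with an interval of 0.848 to 1.31 and 0.968 in females with an interval of 0.799 to 1.17. Changes beyond these bounds lie outside the 95% intervals of this fit in both sexes. The mean effective length of Mlx ran from 324 to 1708 bases between libraries. With the mean transcript length of each library as an offset the log2 difference was 0.071 in males and -0.26 in females (DESeq2 unadjusted P 0.869 and 0.501), and the bounds do not cover that fit.

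The counts of Mlxipl were spread over 10 annotated transcripts. Mlxipl-201, the full-length coding transcript, held on average 63.5% of the gene's estimated counts and Mlxipl-206, annotated as a target of nonsense-mediated decay, held 21.3%. The next were Mlxipl-204 at 5.85% and Mlxipl-207 at 3.56%, both of the same annotated class. The share of Mlxipl-201 was 74.9%, 45.5%, 81.3% and 52.6% in male PP mice and 59.1%, 71.1%, 63.8% and 63.4% in their LL counterparts. It ran from 52.2% to 68.4% in female PP mice and from 60.0% to 66.4% in the female LL group. The male PP shares ranged most widely and enclosed all others. LL minus PP was 0.75 percentage points in males (two-sided exact permutation test, P = 0.914) and 1.78 in females (P = 0.635). As shares of the gene's TPM, where Mlxipl-201 held 45.02% on average, the difference was 15.3 points in males (exact permutation P = 0.0857, adjusted 0.49) and 5.14 in females (exact permutation P = 0.111, adjusted 0.49). For Mlxipl-206 the differences were 5.69 points in males (exact P = 0.4) and 4.14 in females (exact P = 0.492). Only 12.7% of the 31-base words of Mlxipl-201 and 5.88% of those of Mlxipl-206 are found in no other Mlxipl transcript, so the split rests on a small part of each.

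The upstream start, whose first exon holds the forward primer shown above, was close to the limit of detection. Mlxipl-210 had estimated counts of 16.8, 0, 11.2 and 0 in the male PP libraries and 0, 0, 1.62 and 0 in the male LL libraries. The female PP libraries had 0, 9.52, 1.60, 1.54 and 0, and all 5 female LL libraries were at 0. Estimates above 3 counts were thus found in 2 of 4 male PP, 1 of 5 female PP, 0 of 4 male LL and 0 of 5 female LL libraries. A count of 0 allows up to 3 counts, or 0.425% to 0.646% of the gene's counts in the female LL libraries, and the highest share of counts in any library was 3.18%. As a share of the gene's TPM, which divides by the short effective length, Mlxipl-210 was at 56.8% and 42.4% in male PP replicates 1 and 3 and at 18.3% in female PP replicate 2, with a mean of 6.95% over all libraries, so its weight in the gene depends on the scale. No test was made, because the transcript was under the 10% mean share set for testing. The model of 412 bases is shorter than the fragment length read for several libraries, and reads of ChREBP-β downstream of its first exon are shared with the other transcripts, so these estimates do not measure ChREBP-β mRNA as a whole.

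Pklr (chr3:89043449-89054619, plus strand) encodes the pyruvate kinase of liver and red cells, the last enzyme of glycolysis and a classic target of ChREBP. Male PP mice had 648, 384, 588 and 582 counts and male LL mice 618, 874, 938 and 359.7. Female PP mice had 777, 717, 726, 941 and 602 and female LL mice 1103, 1083, 1051, 568 and 472. The LL mice were more spread than the PP mice in both sexes, with 3 female LL mice above and 2 below all female PP mice. The coefficient of variation was 37.9% among male LL and 36.1% among female LL mice against 20.9% and 16.4% in the PP groups, a difference in spread that was not tested. The fold was 1.27 in males with an interval of 0.856 to 1.88 (adjusted P 0.707) and 1.14 in females with an interval of 0.801 to 1.61 (adjusted P 0.796).

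The 2 long Pklr transcripts begin 430 bases apart and differ in their first exon. Pklr-202 begins inside the liver window printed above, and Pklr-201 at the upstream start, which is known from red cell precursors. Pklr-202 held 36.4%, 45.2%, 25.4%, 56.4% and 29.8% of the gene's counts in female PP mice and 100%, 74.7%, 64.2%, 100% and 78.4% in the female LL group. The female groups did not overlap, and LL minus PP was 44.9 percentage points (two-sided exact permutation test, P = 0.00794, the smallest that 5 against 5 allows). In males the shares were 59.6%, 32.1%, 47.5% and 39.8% for PP and 40.4%, 53.8%, 48.5% and 20.0% for LL mice, a difference of -4.06 points (exact P = 0.743). Over the 30 share tests of 15 transcripts, 2 had an unadjusted P under 0.05, both of Pklr in females and mirror images of each other, and the lowest adjusted P was 0.119. With 4 against 4 mice the smallest possible P is 0.0286. The female effect exceeded the male effect by 48.9 points (exact permutation of genotype within each sex, 17640 regroupings, P = 0.00794, adjusted P 0.0672 over 15 transcripts), a test added after the values were seen.

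Fragment length moved with this split. The 5 female LL libraries had fragments of 294, 289.6, 377, 247 and 250.8 bases, while the female PP libraries had 458, 384, 631, 369 and 397 bases. Of the 5 female LL libraries 4 were thus shorter than every female PP library. Over all 18 mice, as deviations from the group means, the share of Pklr-202 and fragment length were related with r = -0.70 (permutation P = 0.00287) and rho = -0.58 (permutation P = 0.0185), and r was -0.66 without the 2 libraries farthest from the median length; this relation was chosen after the values were seen. Only 40 of the 31-base words of Pklr-202 and 32 of those of Pklr-201 are in no other Pklr transcript. The 4 red cell genes listed had a summed level of 594 to 4602 TPM in female LL libraries and 569 to 1452 TPM in female PP libraries. Of these 0 of 4 were called, and the median log2 difference was 1.17. By DESeq2 3 of 4 had an unadjusted P under 0.05, as did 1427 of all 10938 tested genes. The part of red cells in the Pklr split was not tested. Genotype and fragment length cannot be told apart in the female libraries.

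**Figure D2:**
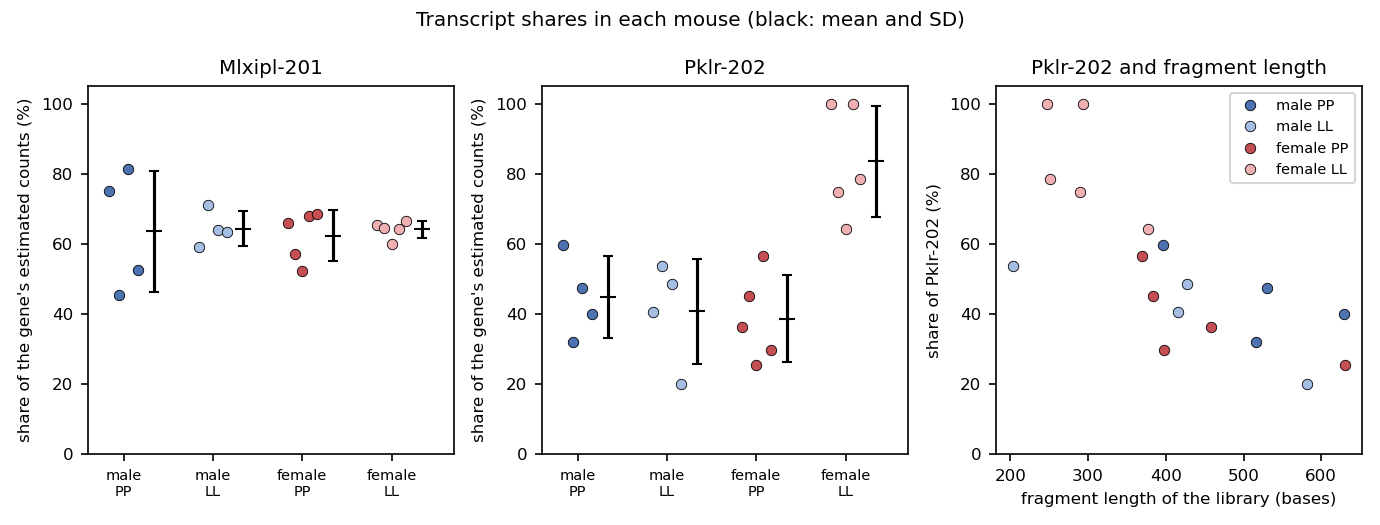
Share of the gene's estimated counts, in percent, held by Mlxipl-201 (left) and Pklr-202 (middle) in each mouse by group, with mean and SD in black, and the share of Pklr-202 against the fragment length of the library in bases (right). The female LL points of Pklr-202 lie between 64.2% and 100%, above all female PP points, and in the right panel they lie mostly at the short fragment lengths.

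Txnip (chr3:96465267-96469201, plus strand) and Arrdc4 (chr7:68386742-68398999, minus strand) encode alpha-arrestins that lower glucose uptake at the cell membrane and are induced by glucose through ChREBP and its relative MondoA. Txnip was at 307, 269, 351 and 355 counts among male PP and at 298, 803, 476 and 158 among male LL mice. The female PP mice had 564, 437, 720.1, 495 and 788, and the female LL mice 594, 605, 937, 225 and 453. The 4 male PP mice were close together while the male LL mice ran both below and above them, with a coefficient of variation of 64.2% against 12.7%. The genotype fold of Txnip was 1.35 in males with an interval of 0.749 to 2.45 and 0.937 in females with an interval of 0.553 to 1.59, so the data leave room for changes of either direction. Arrdc4 was at 24.0, 16.8, 12.2 and 18.0 counts among male PP and at 19.4, 20.4, 13.4 and 21.6 among male LL mice. Among females it was at 29.5, 31.8, 40.3, 29.9 and 38.2 with the PP and at 35.5, 52.4, 33.3, 44.4 and 38.3 with the LL genotype. By genotype these overlapped in both sexes, with folds of 1.07 (0.706 to 1.63) in males and 1.19 (0.893 to 1.59) in females. Txnip was read from 6 transcripts, and its mean effective length differed from 266 to 2146 bases between libraries; 17.3% of its 31-base words also occur in the overlapping gene Gm15441, which held 0 to 11 counts.

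Klf10 (chr15:38291703-38300959, minus strand) encodes a zinc finger repressor that is induced by glucose in hepatocytes and by the clock. The male PP mice had 112, 73.4, 68.6 and 56.7 counts and the male LL mice 86.8, 86.3, 69.6 and 86.4. With the PP genotype females had 136, 143, 128, 152 and 61.1, and with the LL genotype 188, 161, 118, 40.7 and 81.0. The female groups were wide and overlapped, and the fold by genotype was 1.07 (0.660 to 1.72) in males and 0.956 (0.630 to 1.45) in females. Rgs16 (chr1:153616091-153621228, plus strand) encodes a regulator of G-protein signalling whose liver mRNA follows fasting and carbohydrate intake. Its counts for male PP mice were 195, 19.9, 43.2 and 65.7, and for male LL mice 104, 58.7, 41.0 and 37.8. For female PP mice they were 148, 40.0, 64.6, 149 and 121, and for female LL mice 133, 103, 80.5, 107 and 113. Rgs16 was the most variable of the 9 genes, with a coefficient of variation of 53.0% over all libraries and a 9.79-fold range within the male PP group. Its fold by genotype was 0.749 in males with an interval of 0.344 to 1.63, and without male PP replicate 1 the log2 difference turned from -0.42 to 0.48, so its male direction rested on that library.

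Slc16a1 (chr3:104545811-104565780, plus strand) encodes MCT1, a carrier of lactate, pyruvate and ketone bodies across the cell membrane. Male PP mice had 138, 97.6, 137 and 145 counts and male LL mice 163, 209, 164 and 125. Their female counterparts had 289.9, 214, 225, 203 and 186 with the PP and 254, 285, 217, 121 and 179 with the LL genotype. In males 3 of 4 LL mice lay above every PP mouse, yet the fold of 1.28 had an interval of 0.931 to 1.75 and an adjusted P of 0.612. In females the fold was 0.948 with an interval of 0.721 to 1.25. Slc25a47 (chr12:108801972-108822741, plus strand) encodes a carrier of the mitochondrial inner membrane that is found almost only in hepatocytes. The male PP mice had 2206, 1218, 1404 and 2043 counts and the male LL mice 1431, 2352, 2916 and 1736. The female PP group had 2046, 2577, 2085, 2047 and 1902, and the female LL group 2358, 2166, 2928, 2232 and 3284. Its fitted fold was near the same size in both sexes, at 1.23 in males (0.911 to 1.66) and 1.22 in females (0.932 to 1.59). Averaged over the sexes it was 1.22 with an interval of 1.00 to 1.49, at an unadjusted P of 0.0495 and an adjusted P of 0.296, and by edgeR the unadjusted P was above 0.05.

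The second question was whether the axis differed between the sexes. In female PP against male PP mice 2 of the 9 genes were called, Arrdc4 and Slc16a1, both higher in females, beside 6.45% of all tested genes. In female LL against male LL mice 1 was called, Arrdc4, beside 6.12%. Arrdc4 was 1.97-fold higher in female PP mice (1.38 to 2.83, adjusted P 0.00569) and 2.196-fold higher in female LL mice (1.54 to 3.14, adjusted P 0.000863), and the female counts listed above did not overlap the male counts in either genotype. Slc16a1 was 1.73-fold higher in female PP mice (1.29 to 2.32, adjusted P 0.00711), with every female PP mouse above every male PP mouse. In LL mice the fold of Slc16a1 was 1.28 (0.955 to 1.72, adjusted P 0.353), and the difference between both sex effects was not called (-0.43 ± 0.31 on the log2 scale, unadjusted P 0.161). Libraries of the sexes separated without overlap for 3 of 9 genes in PP mice (Txnip, Arrdc4 and Slc16a1) and for 1 of 9 in LL mice (Arrdc4), against 9.74% and 8.16% of all tested genes.

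Txnip and Klf10 were on the same side in PP mice without being called. Txnip was 1.88-fold higher in female than in male PP mice (1.07 to 3.29, unadjusted P 0.028, adjusted P 0.202), and Klf10 was 1.60-fold higher (1.02 to 2.51, unadjusted P 0.039, adjusted P 0.248). For Txnip this depended on the transcript lengths: with the mean transcript length of each library as an offset the log2 difference was -0.080 in place of 0.91. With the same offset the Arrdc4 difference was 0.58 in PP mice (adjusted P 0.466) and 0.97 in LL mice (adjusted P 0.168) and no longer called, and Pklr was called at 0.91 (adjusted P 0.0403). Slc16a1 has a single transcript in the files and was called with the offset too (0.92, adjusted P 0.010). Without male PP replicate 2 Slc16a1 was not called (0.67, adjusted P 0.0621), and without male PP replicate 3 Arrdc4 was not called in PP mice (0.83, adjusted P 0.0708). Rgs16 was called without male PP replicate 1 (1.28, adjusted P 0.0376) and Txnip without male LL replicate 4 (0.91, adjusted P 0.0461). Mlxipl, Mlx, Pklr and Slc25a47 had folds of 0.894, 0.960, 1.37 and 1.24 in female PP against male PP mice, and none was called. With the offset the log2 difference of Mlx moved from -0.059 to -0.53 in PP mice and from -0.18 to -0.86 in LL mice, and that of Mlxipl in PP mice from -0.16 to -0.44, and none of these was called.

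Markers of some other liver cells also differed between female and male PP mice. Of the 4 stellate cell markers listed 3 were tested, and all of these were called higher for female than for male PP mice (Reln, Dcn and Lrat). Of the endothelial markers 2 of 4 were called higher (Clec4g and Kdr), beside 6.45% of all tested genes. In the Kupffer cell and red cell lists 0 of 4 were called, with median log2 differences of 0.16 and -1.06. By DESeq2 0 of 4 Kupffer cell and 2 of 4 red cell markers had an unadjusted P under 0.05, as did 1913 of all 10938 tested genes. The summed level of the stellate list was 12.6 to 42.1 TPM in male PP and 63.1 to 79.95 TPM in female PP libraries, and that of the endothelial list was 4.66 to 18.7 and 28.3 to 50.5 TPM. The hepatocyte list ran from 19746 to 32836 TPM among male PP and from 74006 to 129876 TPM among female PP libraries, with 1 of 5 genes, Alb, called higher. On normalized counts the median log2 difference was 1.04 for the stellate, 1.08 for the endothelial and 0.39 for the hepatocyte list. The TPM gaps were wider. Slc25a47 likewise had means of 131 TPM in male PP and 296 TPM in female PP libraries at a fold of 1.24, so the TPM ranges do not give the size of these differences. In LL mice, where Arrdc4 was also called, 0 of 3 stellate and 0 of 4 endothelial markers were called. Of the Kupffer cell markers 1 of 4, Vsig4, was called higher in LL females (0.85 ± 0.25 on the log2 scale), beside 6.12% of all tested genes. The part of these cells in the Arrdc4 and Slc16a1 values was not tested.

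**Figure D3:**
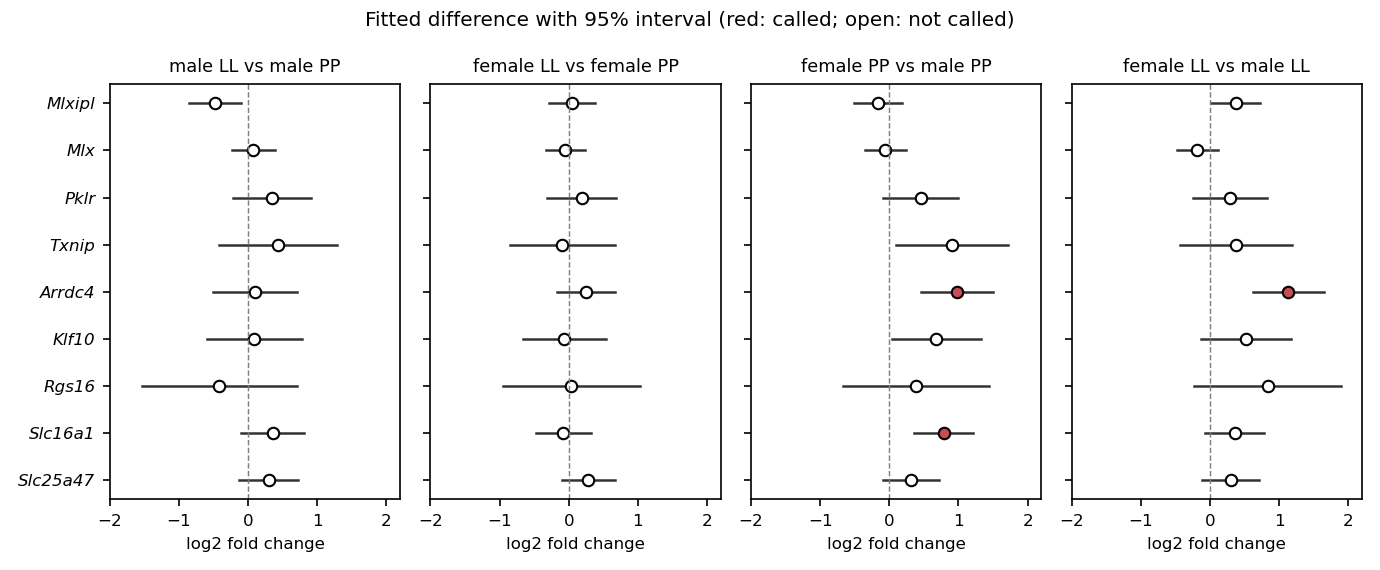
Fitted log2 fold change of each gene (points) with its 95% interval (lines) in the 4 comparisons named above each panel, where positive values mean higher in the group named first. Red points passed the adjusted P and fold limits, and these are Arrdc4 and Slc16a1 in female PP against male PP and Arrdc4 in female LL against male LL.

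The members were next compared with each other across mice within groups. Over 36 pairs, using deviations of log2 (normalized count + 1) from the group means in 18 libraries, 28 had a positive Pearson correlation and 0 reached an adjusted P under 0.05 by Pearson or by Spearman correlation. The lowest P was that of Pklr and Slc16a1, with r = 0.75 (permutation P = 0.00353, adjusted 0.127) and rho = 0.73 (permutation P = 0.0027, adjusted 0.0972). This pair kept its r without the 2 libraries farthest from the median of Pklr (0.77) and within males (0.86) and females (0.70). Txnip and Slc16a1 had r = 0.68 (permutation P = 0.00959, adjusted 0.173), but r was 0.40 without the 2 farthest libraries. Klf10 and Slc16a1 had r = 0.68 (permutation P = 0.0156, adjusted 0.187), and r was 0.41 without the 2 libraries farthest from the median of Klf10. Within males r of this pair was -0.033 and within females 0.86. Pklr and Txnip had r = 0.68 (permutation P = 0.0232, adjusted 0.209), and 0.62 without the 2 libraries farthest from the median of Pklr. Mlxipl was not among the close pairs over all 18 mice, its highest r being 0.43, with Slc25a47 (permutation P = 0.108, adjusted 0.58). Within males and within females this r was 0.44 and 0.49. The sign differed between the sexes for Mlxipl with Pklr (0.61 in males, -0.48 in females), with Txnip (0.36 and -0.66) and with Mlx (0.59 and -0.32). The values by sex were not tested. The genes of a pair share the library and its scaling factor.

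**Figure D4:**
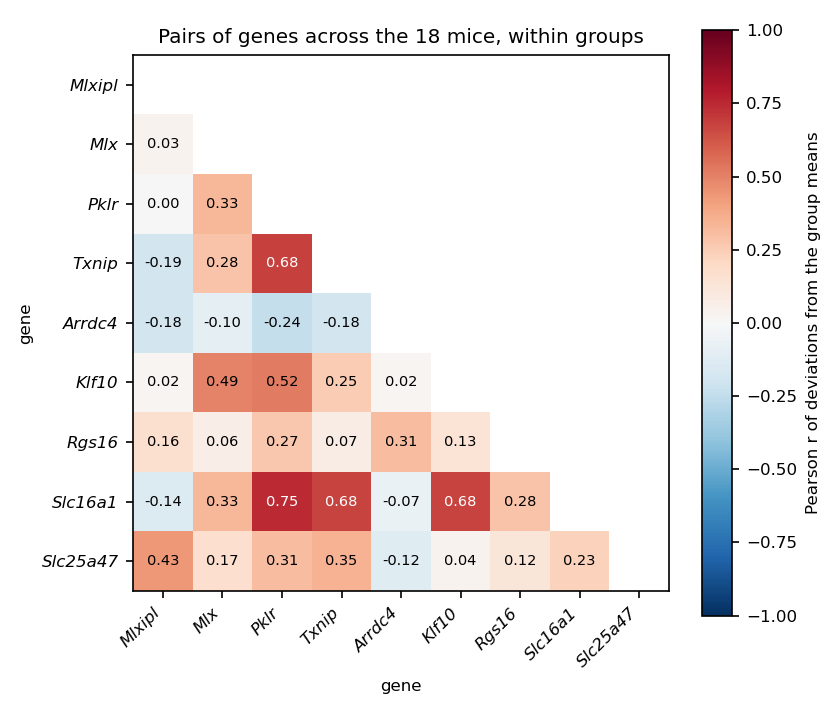
Pearson correlation (colour and printed value) of each pair of the 9 genes over 18 mice, as deviations of log2 (normalized count + 1) from the group means. The highest values are among pairs of Pklr, Txnip, Klf10 and Slc16a1, with 0.75 for Pklr and Slc16a1, but Txnip and Klf10 had 0.25. No pair passed the adjusted threshold.

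Among 3566 tested genes whose normalized counts averaged 100 or more, the genes whose pattern over the 18 mice was most like each member were named by Spearman correlation of the same deviations, as a description. For Pklr they were Me1 (rho 0.89), Tkfc (0.88) and Aqp8 (0.83), of which Me1 encodes malic enzyme and Tkfc triokinase. For Slc16a1 they were Cs (0.88), Hsd17b12 (0.80) and Sdr9c7 (0.79). The nearest gene was Lims2 for Mlxipl (0.81), Apmap for Mlx (0.72), Plcxd2 for Txnip (0.86) and Tmem30b for Arrdc4 (0.73). It was Pdhb for Klf10 (0.84), Arrdc3 for Rgs16 (0.73) and Usp10 for Slc25a47 (0.87).

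Other genes of the pathway were taken from lists. Of 8 lipogenic targets of ChREBP 7 were tested, and 2 were called higher for LL than for PP males, whereas 0 were called in females. Of all tested genes 0.283% were called by genotype in males and 0.658% in females. Scd1, the stearoyl-CoA desaturase, had 12786 ± 4229 (SD, n = 4) normalized counts on average with the PP and 35514 ± 3429 (n = 4) with the LL genotype in males, a log2 difference of 1.47 ± 0.35 (SE, adjusted P 0.00446). Me1 had 519 ± 105.3 and 1049.7 ± 366, a difference of 1.02 ± 0.29 (adjusted P 0.0471). In females Scd1 had 30063 ± 6577 (n = 5) with PP and 26417 ± 17234 (n = 5) with LL, and the female minus male genotype effect was -1.66 ± 0.46 on the log2 scale (DESeq2 adjusted P 0.0459). The calls depended on the method. In the interaction DESeq2 gave an adjusted P to 1606 genes and called 13, whereas edgeR called 0 of all 10938 tested genes. In the male genotype comparison DESeq2 called 31 genes and edgeR 3. The median log2 difference of the 7 tested genes was 0.78 in males and -0.17 in females. Averaged over the sexes Me1 and Thrsp were called higher, beside 0.978% of all tested genes. Between PP females and males 6 of the 7 were called higher in females, led by Fasn, the fatty acid synthase, at 1.88 ± 0.20. Between LL females and males 1 was called, Fasn. The shares of all tested genes called in these comparisons were 6.45% and 6.12%.

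Among 5 tested genes of monocarboxylate transport, which surrounds Slc16a1 in function, 0 were called by genotype within either sex, and Mpc1, a subunit of the mitochondrial pyruvate carrier, was called higher in LL mice averaged over the sexes (0.41 ± 0.11, adjusted P 0.0164). Of all tested genes 0.978% were called in that average. By sex 2 of the 5 were called higher in females in PP mice, Slc16a7 and Mpc2, beside 6.45% of all tested genes. In LL mice 4 of the 5 were called higher in females, Slc16a7, Bsg, Mpc1 and Mpc2, beside 6.12%. The lists of glucose entry (5 tested of 7), the Max and Mlx network (8 of 9), secreted targets (2 of 2), other alpha-arrestins (2 of 4), other Slc25 carriers (5 of 5), feeding and insulin state (8 of 8) and transcription partners (6 of 6) had 0 genes called in either sex by genotype. The lowest adjusted value by DESeq2 was that of Slc25a44, a mitochondrial carrier, in females, where the log2 difference was -0.46 ± 0.14 (adjusted P 0.0628). In males it was Mxd1, a repressor of the Max network, that had the lowest unadjusted value of these lists, with a log2 difference of -0.87 ± 0.36.

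**Figure D5:**
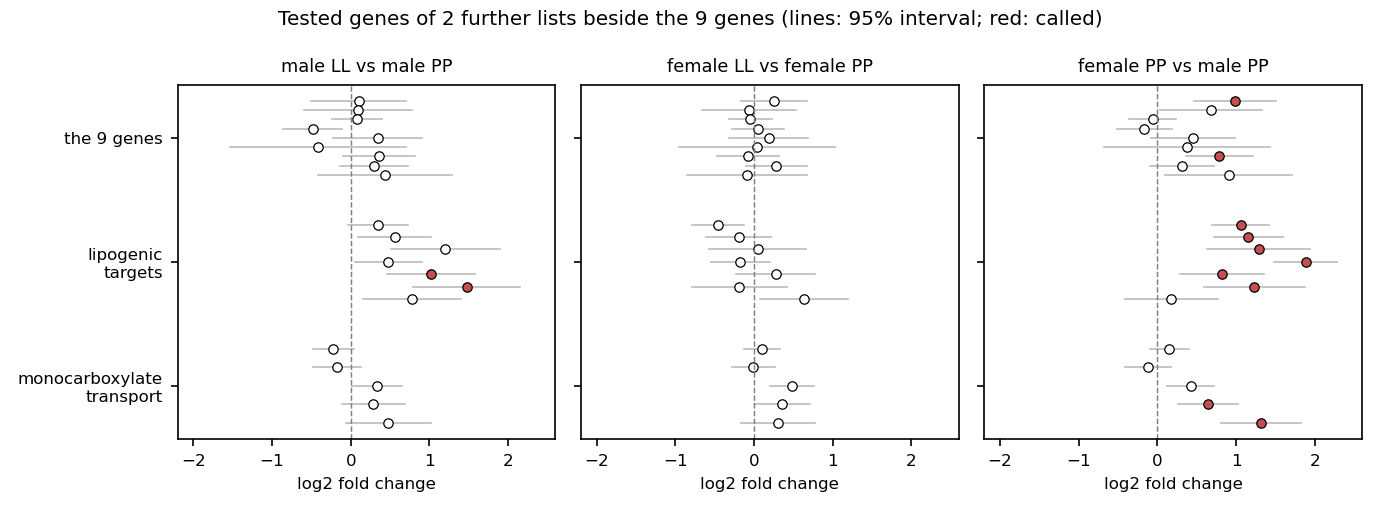
Log2 fold change (points) with 95% interval (lines) of the 9 genes and of the tested genes of 2 further lists, on the y axis, by genotype in males (left), by genotype in females (middle) and by sex in PP mice (right). Red points were called, and in male LL mice they are Scd1 and Me1 among the lipogenic targets, with 0 of the 9 genes.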

How the data were processed

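Liver RNA from 18 mice was sequenced. The authors quantified reads with Salmon 1.4.0 against GENCODE M26 (GRCm39), without trimming, and deposited estimated counts and TPM per transcript with annotated and effective lengths (Length, EffectiveLength). Transcripts were joined to genes with GENCODE M39: 137570 of 139225 matched, holding at least 99.8% of each library's counts. Estimated counts were summed per gene and rounded; depth was 3794671 to 6613905 counts per library. Genes reaching 10 counts in 4 or more libraries (10938) were fitted with DESeq2 1.42.0 (Wald test, 1 mean per group, all 18 libraries, Benjamini-Hochberg); edgeR 4.0.16 was an alternative. The fits were tested on simulated data. Transcripts with a mean share of at least 10% were tested by exact permutation, pairs of genes by 100000 permutations of mice within groups. Intervals are 95% Wald intervals; limits for a count of 0 cover counting error only. TPM was used for levels between genes and markers.

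The 9 genes and all lists were chosen with earlier results of these data known. Named were the 9 genes, list genes called in a comparison, the 2 genes per list with the smallest P by genotype, and the 3 genes most like each member; Gckr and the markers were added. Fragment length was the median of annotated minus effective length over transcripts of at least 3000 bases. Matching sequences share reads with overlapping genes: 32.2% of the 31-base words of Pklr occur in Hcn3 (7 to 55 counts), 17.4% of those of Mlx in Psmc3ip (0 to 5 counts); strand was not given in the sources used here. Replicate numbers follow the labelled age within each group, so a model term for replicate number also carries age order. Same-numbered libraries correlated at -0.17 to 0.16. The list of sugar metabolism targets is not reported here.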

Additional observations from a re-analysis of the deposited data

Results flagged for a closer look

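In 4 of the 36 groups formed by the 9 genes and the 4 groups of mice, 1 mouse stood apart from the others, its gap to the nearest mouse being most of the group's range. Chance gives about 1 such group in 20. Klf10 was at 69.6 normalized counts in male LL replicate 3, below the other 3 male LL mice at 86.3 to 86.8, and at 61.1 in female PP replicate 5, below the other 4 female PP mice at 128 to 152. By the labels female PP replicate 5 was 14 weeks old and the other 4 were 9 to 12 weeks. Over all 18 mice, as deviations from the group means, Klf10 and age had r = -0.66, and the part of age in this value was not tested. Slc16a1 was at 97.6 in male PP replicate 2, below the other male PP mice at 137 to 145. Leaving out this library ended the call of Slc16a1 between female and male PP mice. Slc25a47 was at 2577 in female PP replicate 2, above the other female PP mice at 1902 to 2085. No mouse was flagged for more than 1 gene.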

How the results depend on the processing

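Each of the 54 fold changes, 9 genes in 6 comparisons, was recomputed under up to 9 other settings and without each of 18 libraries in turn (the fit of only the 2 groups compared does not apply to the average and the interaction), and of the 1440 values obtained 1367 kept their direction and their side of the limits, 65 turned, 4 lost the call and 4 gained it. The number of genes called was 0 under every setting in the 3 genotype comparisons and in the interaction. Between female and male PP mice it was 2, and 1 to 3 when a library was left out; Txnip was added when only the 2 groups compared were fitted (adjusted P 5.48e-05). Between female and male LL mice it was 1, and 0 with the transcript length offset. The cause was not tested. The 2 transcript shares with an unadjusted P under 0.05, both of Pklr in females, were 0 with the replicate block, where 5 pairs allow no P under 0.0625. No label says whether the replicate numbers pair the mice. Of the 9 numbered pairs 2 correlated best with their own number, which cannot show whether mice shared a litter or a day. The replicate block changed no count of called genes.

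Of the 54 fold changes 24 turned under some setting; of these only Txnip between female and male PP mice was called under any setting, in females higher. With the transcript length offset the log2 difference by genotype was -0.51 for Txnip and -0.31 for Arrdc4 in males, -0.11 for Pklr, 0.37 for Txnip and 0.011 for Slc16a1 in females, and -0.094 for Mlx, -0.073 for Txnip and -0.12 for Arrdc4 averaged over the sexes. It was -0.080 for Txnip between female and male PP mice and 0.88 for the Txnip interaction. Adding fragment length as a term gave -0.10 for Mlxipl and -0.50 for Rgs16 in females, and -0.026 for Mlx, -0.012 for Txnip and -0.028 for Klf10 averaged. With age as a term it was 0.20 for Klf10 and 0.034 for Slc16a1 in females, 0.015 for Rgs16 averaged and 0.0035 for the Slc25a47 interaction. With the replicate block it was 0.00577 for Rgs16 averaged.

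Leaving out 1 library moved the male genotype difference from -0.011 to 0.16 for Mlx, -0.044 to 0.71 for Txnip, -0.051 to 0.25 for Arrdc4, -0.033 to 0.31 for Klf10 and -0.81 to 0.48 for Rgs16. In females it ran from -0.041 to 0.14 for Mlxipl, -0.11 to 0.027 for Mlx, -0.36 to 0.11 for Txnip, -0.30 to 0.15 for Klf10, -0.17 to 0.20 for Rgs16 and -0.21 to 0.066 for Slc16a1. Averaged it ran from -0.028 to 0.055 for Mlx, -0.069 to 0.31 for Txnip, -0.10 to 0.12 for Klf10 and -0.39 to 0.26 for Rgs16. Between female and male PP mice it ran from -0.15 to 0.020 for Mlx. The interaction ran from -0.37 to 0.018 for Pklr, -0.39 to 0.055 for Klf10, -0.44 to 0.85 for Rgs16 and -0.16 to 0.18 for Slc25a47. The share differences in percentage points ran from -5.28 to 6.65 for Mlxipl-201 in males, -0.756 to 3.31 for Mlxipl-201 in females, -2.71 to 8.60 for Pklr-201 in males and -8.42 to 2.83 for Pklr-202 in males. Depth limited Arrdc4, at 13 to 55 counts, and Mlxipl-210, at 0 in most libraries.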
